A study of Homo sapiens with 3 samples.

Results

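The genes described are 10 core genes of the structural maintenance of chromosomes (SMC) complexes, taken by name: SMC1A, SMC3, RAD21, STAG1, STAG2 and the loader NIPBL for cohesin, SMC2 and SMC4 for condensin, and SMC5 and SMC6 for the SMC5/6 complex. All 10 were found by symbol among the 48162 genes of the deposited tables and all 10 were above the minimum mean of 1 FPKM (fragments per kilobase of transcript length, relative to the reads of the library), as were 12649 genes in all. RNA was sequenced from MDA-MB-231, cells of a human breast cancer that lacks estrogen and progesterone receptors and HER2 amplification, with 1 library for a FoxO3 depletion, 1 for a co-depletion of Geminin and FoxO3 and 1 for a control. All 3 groups were grown with 10% fetal bovine serum, exposed to lentivirus for 24 hours and harvested 72 hours after the medium change. Neither the depleting sequences nor the control's vector are named in the labels. With 1 library per group there is no replicate check, so every difference is one between libraries and none has a p-value.

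SMC proteins are long coiled-coil ATPases that pair at a hinge and are closed into a ring by a kleisin subunit. Cohesin holds sister chromatids together and extrudes loops of interphase chromatin, condensin compacts chromosomes for mitosis, and the SMC5/6 complex acts in DNA repair and replication. FoxO3 is a forkhead transcription factor, and Geminin, encoded by GMNN, restrains the licensing factor CDT1 so that DNA is not replicated again in the same cycle.

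The FPKM values rest on 10760613 reads in the FoxO3-depleted library, 12267332 in the co-depleted library and 14507410 in the control. The depleted genes were low where the labels say so. FOXO3 was at 2.79 FPKM with FoxO3 depleted and 2.94 with both depleted, against 12.2 in the control, and GMNN was at 112.2, 37.0 and 112.3 FPKM in the same order of libraries. The mesenchymal markers VIM and CD44 lay between 574.3 and 935.2 FPKM and the keratins KRT8 and KRT18 between 117.9 and 1105, while the hormone receptor genes ESR1 and PGR stayed at or under 0.119 FPKM. In bulk RNA, fewer cells that express a gene and less of its RNA per cell cannot be told apart.

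Sequences upstream of the annotated starts are shown for 4 of the 10 genes, chosen with their values known as the condensin pair SMC2 and SMC4 and the X-linked cohesin genes STAG2 and SMC1A, which lay far apart in their response. RefSeq windows on GRCh38.p14 matched 9 of the 10 genes, with no window for RAD21, and gave 14 windows because several genes have more than 1 start. The 250 bases before the most upstream start are printed 5′ to 3′ on the gene's strand. SMC2 lies at chr9:104094059-104094308 on the plus strand, SMC4 at chr3:160399400-160399649 on the plus strand, STAG2 at chrX:123960310-123960559 on the plus strand and SMC1A at chrX:53422729-53422978 on the minus strand. Capitals mark matches, on either strand, to CCAAT (the NF-Y box), TTTGAA (the cell cycle genes homology region) or GTAAACA (a forkhead core).
SMC2: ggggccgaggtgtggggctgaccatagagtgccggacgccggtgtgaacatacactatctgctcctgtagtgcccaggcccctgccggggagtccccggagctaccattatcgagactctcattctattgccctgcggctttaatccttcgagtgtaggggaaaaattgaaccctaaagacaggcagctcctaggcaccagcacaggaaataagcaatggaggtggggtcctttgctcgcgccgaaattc
SMC4: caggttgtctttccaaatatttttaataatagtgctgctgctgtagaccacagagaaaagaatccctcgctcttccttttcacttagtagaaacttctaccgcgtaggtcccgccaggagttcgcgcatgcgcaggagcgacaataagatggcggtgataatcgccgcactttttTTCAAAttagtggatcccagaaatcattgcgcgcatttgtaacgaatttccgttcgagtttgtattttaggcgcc
STAG2: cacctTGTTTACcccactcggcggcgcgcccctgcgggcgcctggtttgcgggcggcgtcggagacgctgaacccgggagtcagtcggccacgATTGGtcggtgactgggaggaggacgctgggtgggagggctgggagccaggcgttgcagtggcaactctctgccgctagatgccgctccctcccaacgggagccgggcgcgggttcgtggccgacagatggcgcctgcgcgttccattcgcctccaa
SMC1A: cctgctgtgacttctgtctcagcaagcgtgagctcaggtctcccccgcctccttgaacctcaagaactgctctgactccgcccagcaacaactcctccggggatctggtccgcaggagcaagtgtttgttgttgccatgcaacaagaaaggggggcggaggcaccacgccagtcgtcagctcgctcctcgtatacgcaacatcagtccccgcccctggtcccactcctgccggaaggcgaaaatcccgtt

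In STAG2 a forkhead core on the reverse strand began 245 bases upstream of the start and a reversed CCAAT box 157 bases upstream. In SMC4 a reversed TTTGAA began 75 bases upstream. None of the 3 motifs was found in the windows printed for SMC2 and SMC1A. Of the 14 windows, GTAAACA was found in 1 (STAG2), against 2.98% of all 35116 windows, and TTTGAA in 2 (SMC3 and SMC4), against 13.3%. CCAAT was found in 3 of the 14 (STAG1 and STAG2), against 32.0%, and the GC box GGGCGG in 11 of the 14 (8 of the 9 genes), against 42.6%. The 14 windows ran from 45.2% (SMC4) to 74.4% GC (STAG1), most of them above the median of 58% over all windows. The part of this GC content in the matches was not tested. The windows of SMC1A overlap, so a site there can be counted in both. The E2F forms TTTCCCGC (SMC1A and STAG1) and TTTGGCGC (NIPBL and STAG2) were found in 2 windows each, against 1.39% and 0.550% of all windows. These matches describe letters in short windows and no binding was measured.

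Within each library the kleisin RAD21 had the highest level of the 10 genes and the STAG1 subunit the lowest. RAD21 was at 215.3 FPKM in the FoxO3 depletion, 217.9 in the co-depletion and 334.3 in the control, and STAG1 at 7.88, 9.43 and 17.2 FPKM. Between them, in the control, the order ran SMC1A, SMC4, STAG2, SMC3, SMC2, NIPBL, SMC5 and SMC6. NIPBL and SMC5 were the only neighbours in the control whose exact 95% Poisson intervals overlapped, at 29.5 FPKM (28.0 to 31.0) and 28.0 FPKM (26.3 to 29.8). The order of FPKM was the same in both depleted libraries, where STAG2 and SMC3 (FoxO3 depletion only) and SMC6 and STAG1 (both depletions) also overlapped. Among all analysed genes, RAD21 stood at percentile 95.4 in the FoxO3 depletion, 95.6 in the co-depletion and 97.7 in the control.

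Levels of different genes depend on the length used for each. The lengths behind the FPKM ran from 1238 bases for RAD21 to 3652 for SMC2, well under the longest annotated transcripts, which run from 3749 bases for RAD21 to 10435 for NIPBL. Per kilobase of the longest transcript, a reading chosen after seeing the data, SMC3 came next after SMC1A in the control at 37.3 FPKM, ahead of SMC4 at 35.3 and SMC2 at 27.7. NIPBL then came last but for STAG1, at 10.01 FPKM. RAD21, SMC1A and STAG1 kept the first, second and last places in the control, while the other 7 genes changed place. Plain ratios of FPKM between libraries do not depend on this length. The ratios used below to count lower and higher genes do, since a constant is added to each FPKM first. Those counts were not repeated with the longest transcripts.

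**Figure D1:**
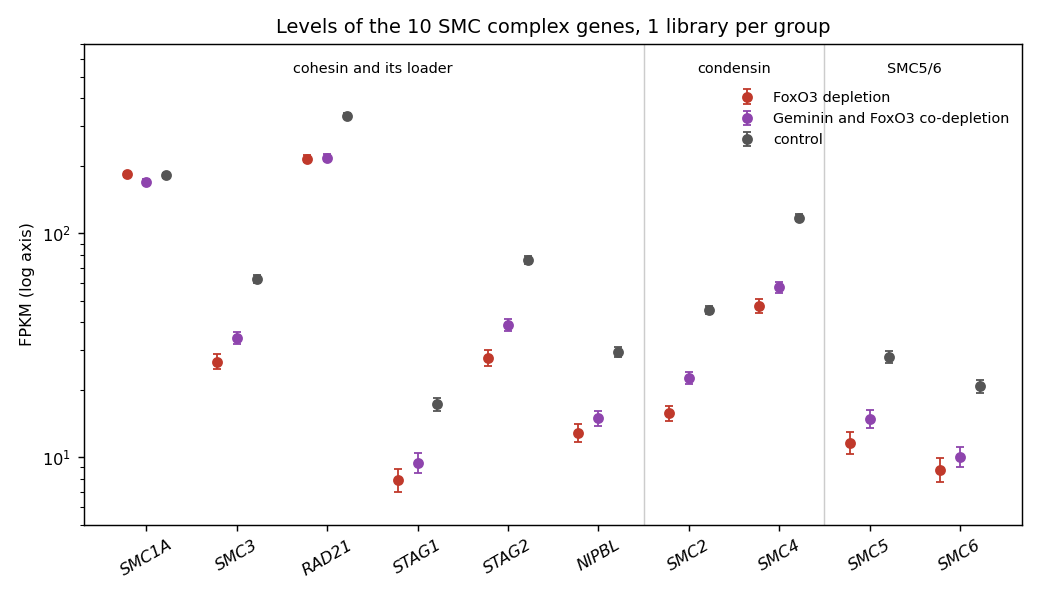
FPKM of the 10 genes (log axis) in the FoxO3-depleted, co-depleted and control libraries, with exact 95% Poisson intervals from recovered reads (counting error only). The control point lies highest for 9 genes, and the SMC1A points lie together between 169.9 and 183.1 FPKM.

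The first comparison asks how the SMC genes differ when FoxO3 is depleted. Every gene of the 10 but SMC1A was at least 1.5-fold lower on the FPKM + 1 scale in the FoxO3-depleted library, and 8 of these were at least 2-fold lower. The 9 lower and 0 higher genes stand beside a background of 16.7% lower and 4.00% higher among all analysed genes, and the 8 beside 5.23% at least 2-fold lower. The median log2 ratio was -1.18 for the 10 genes and -0.07 for all analysed genes. Transcripts poor in GC were lower as a whole in this library. The 9 lower genes have transcripts of 36.1% to 41.5% GC, and of the 2053 analysed genes in that range 49.5% were at least 1.5-fold lower and 20.6% at least 2-fold lower, with a median log2 ratio of -0.58.

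The cohesin ring split. SMC3 (ENSG00000108055, chromosome 10), whose acetylation locks cohesin on sister chromatids, was at 26.7 FPKM in the FoxO3 depletion, 34.2 in the co-depletion and 62.7 in the control. Its level in the FoxO3 depletion was 42.6% of control, with an exact 95% counting interval of 39.1% to 46.4%. SMC1A (ENSG00000072501, chromosome X), its partner ATPase, was at 183.1, 169.9 and 181.6 FPKM. On FPKM as deposited, the FoxO3-depleted and control libraries were level for SMC1A, at a ratio of 1.01 (0.971 to 1.05). The ratio of SMC1A to SMC3 was therefore 6.86 in the FoxO3 depletion, 4.97 in the co-depletion and 2.90 in the control. That ratio was 2.37 times as large in the FoxO3 depletion as in the control (exact conditional 95% interval 2.16 to 2.60). In the co-depletion it was 1.72 times as large (1.58 to 1.87). Neither value is adjusted for GC content, and SMC1A transcripts are at 47.7% GC and SMC3 transcripts at 39.4%. Subtracting the median ratio of all genes at the same GC content put the FoxO3-depletion log2 ratios at 0.01 (SMC1A) and -0.57 (SMC3), against 0.01 and -1.20 before it. The co-depletion values were then -0.06 and -0.37.

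RAD21 (ENSG00000164754), the kleisin that bridges the SMC1A and SMC3 heads and is cut by separase at anaphase, was lower by a smaller margin than the other lower genes. Its 215.3 FPKM in the FoxO3 depletion was 64.4% of the control's 334.3 (61.6% to 67.3%), a log2 ratio of -0.63 just past the 1.5-fold line. Rescaled to a median ratio of 1 over all genes, RAD21 lay inside that line in both depletions, at -0.55 each. Relative to SMC3 it stood at 8.06 in the FoxO3 depletion, 6.38 in the co-depletion and 5.33 in the control.

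STAG1 (ENSG00000118007, chromosome 3) and STAG2 (ENSG00000101972, chromosome X) are alternative subunits that bind RAD21, and STAG2 is often mutated in cancers. STAG2 was at 27.8 FPKM in the FoxO3 depletion, 38.8 in the co-depletion and 76.0 in the control. Its FoxO3-depleted level was 36.5% of control (33.4% to 39.9%). STAG1 was at 7.88, 9.43 and 17.2 FPKM, or 45.8% of control in the FoxO3 depletion (39.8% to 52.7%). STAG2 made up 77.9% of the FPKM of the pair in the FoxO3 depletion, 80.4% in the co-depletion and 81.5% in the control. The STAG2 to STAG1 ratio was 0.797 times that of the control in the FoxO3 depletion (0.675 to 0.942) and 0.931 times in the co-depletion (0.804 to 1.08). The first interval lies below 1 and the second holds 1, so a difference in the co-depletion was not detectable at this depth. Neither value is adjusted for GC content, and STAG2 transcripts are at 39.2% GC and STAG1 transcripts at 40.7%. STAG1 reads may also include those of PCCB on the other strand, described below.

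NIPBL (ENSG00000164190, chromosome 5), which loads cohesin and stimulates its ATPase, was at 12.8 FPKM in the FoxO3 depletion, 15.0 in the co-depletion and 29.5 in the control. The FoxO3-depleted level was 43.6% of control (39.3% to 48.3%). The NIPBL to SMC3 ratio was 0.481 in the FoxO3 depletion, 0.438 in the co-depletion and 0.470 in the control, and both intervals against the control held 1 (0.895 to 1.17 in the FoxO3 depletion and 0.828 to 1.05 in the co-depletion).

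SMC2 (ENSG00000136824, chromosome 9) and SMC4 (ENSG00000113810, chromosome 3) form the ATPase core of both condensin I and condensin II. SMC2 had the lowest ratio of the 10 genes in the FoxO3 depletion, at 15.7 FPKM there, 22.5 in the co-depletion and 45.4 in the control. Its FoxO3-depleted level was 34.6% of control (31.6% to 37.8%), and it went with a place at percentile 48.0 of all analysed genes in that library and 72.9 in the control. SMC4 was at 47.4 FPKM in the FoxO3 depletion, 57.4 in the co-depletion and 117.3 in the control, or 40.4% of control in the FoxO3 depletion (37.4% to 43.7%). The SMC4 to SMC2 ratio was 3.01 in the FoxO3 depletion, 2.55 in the co-depletion and 2.58 in the control. It was 1.17 times the control's in the FoxO3 depletion (1.04 to 1.31) and 0.987 times in the co-depletion (0.892 to 1.09).

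SMC5 (ENSG00000198887, chromosome 9) and SMC6 (ENSG00000163029, chromosome 2) pair in the complex that carries a SUMO ligase and acts at stalled forks. SMC5 was at 11.6 FPKM in the FoxO3 depletion, 14.8 in the co-depletion and 28.0 in the control, and SMC6 at 8.81, 10.03 and 20.8 FPKM. The FoxO3-depleted levels were 41.3% of control for SMC5 (36.3% to 47.0%) and 42.3% for SMC6 (36.8% to 48.6%). The SMC6 to SMC5 ratio was 0.761 in the FoxO3 depletion, 0.677 in the co-depletion and 0.743 in the control. The intervals against the control, 0.847 to 1.24 for the FoxO3 depletion and 0.770 to 1.08 for the co-depletion, both held 1.

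**Figure D2:**
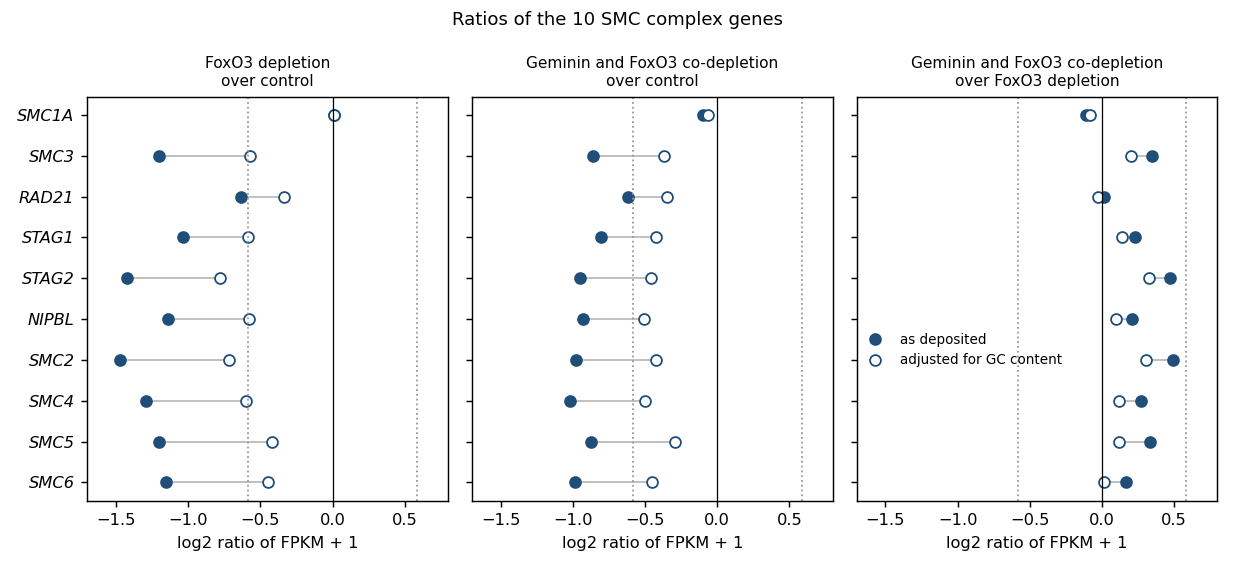
Log2 ratio of FPKM + 1 for the 10 genes in the 3 comparisons, as deposited (filled) and after subtracting the running median over GC content (open), with dotted lines at 1.5-fold. In the first comparison 9 filled points lie left of the line and 3 open points do, and SMC1A stays near 0.

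Adjusting each ratio by the running median of all genes at the same GC content left the 9 genes lower but smaller in margin. The median log2 ratio of the 10 genes was then -0.58 in the FoxO3 depletion, and 3 genes remained at least 1.5-fold lower, STAG2 at -0.78, SMC2 at -0.72 and SMC4 at -0.60. STAG1, NIPBL and SMC3 lay just inside that line, at -0.58, -0.58 and -0.57. SMC6 was at -0.45, SMC5 at -0.42 and RAD21 at -0.34, and SMC1A was at 0.01. The background of genes at least 1.5-fold lower after the same adjustment was 8.45%. Among the 2053 genes of the same GC range, the unadjusted ratio of SMC2 stood at percentile 2.78, STAG2 at 3.75, SMC4 at 6.77, SMC5 at 9.60 and SMC3 at 9.84. SMC6 was at 12.5, NIPBL at 13.2, STAG1 at 18.5 and RAD21 at 46.2.

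The dependence on GC content was gradual. In the lowest of 10 equal bins of GC content, which holds SMC2, SMC3, SMC4, SMC5, SMC6, STAG2 and NIPBL, the median log2 ratio in the FoxO3 depletion was -0.71 and 60.1% of genes were at least 1.5-fold lower. In the second bin, which holds RAD21 and STAG1, the median was -0.41. In the fifth bin, which holds SMC1A, it was 0.01, the same as the ratio of SMC1A to 2 decimals. Over the 10 genes, ratio and GC content had a Spearman's rho of 0.82 with FoxO3 depleted and 0.75 with both depleted, against 0.41 and 0.44 over all analysed genes. These 10 points share the libraries and, apart from SMC1A, a narrow range of base composition. What makes the AT-rich transcripts lower was not tested.

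**Figure D3:**
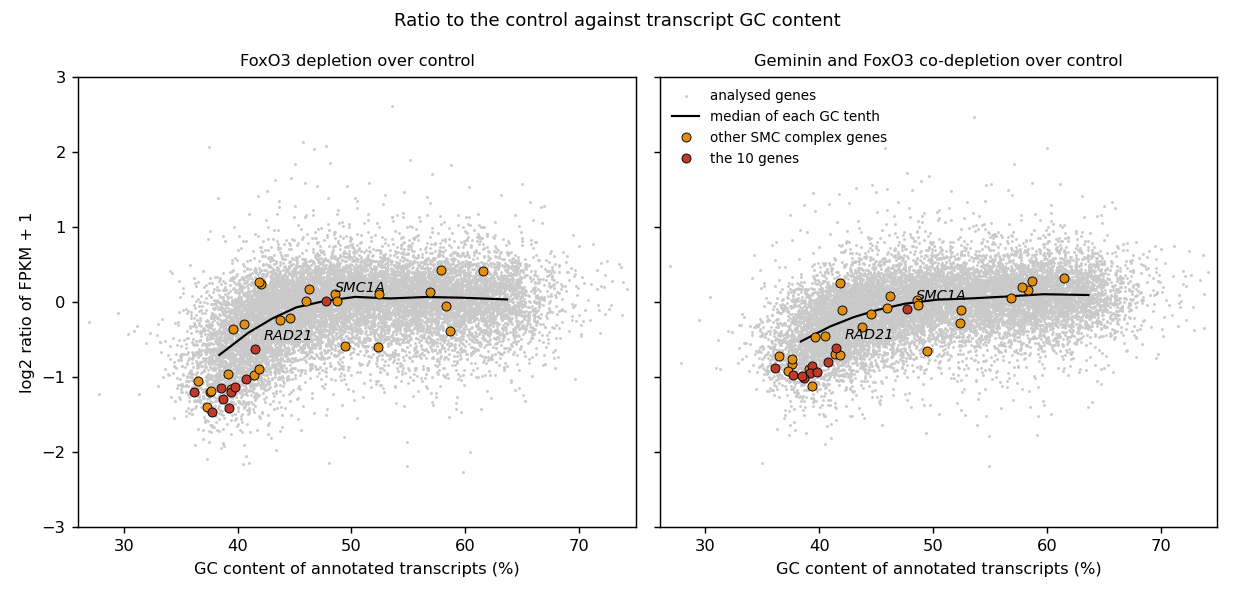
Log2 ratio of FPKM + 1 to the control against transcript GC content (%), for the FoxO3 depletion (left) and the co-depletion (right), with all analysed genes in grey, the median of each of the 10 GC bins as a line, other SMC complex genes in orange and the 10 genes in red. The 9 lower genes lie at 36.1% to 41.5% GC and below the line. SMC1A, at 47.7%, lies on it in the left panel and slightly below it in the right.

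The second comparison asks how co-depleted cells differ from control cells. The same 9 genes were at least 1.5-fold lower in the co-depleted library and 0 were higher, beside a background of 12.3% lower and 4.02% higher. Both comparisons use the same control library. SMC4 alone was at least 2-fold lower, against 2.25% of all genes, and SMC2 and SMC6 were past 2-fold on FPKM alone but not on the FPKM + 1 scale. The 8 genes other than SMC1A and RAD21 lay between 48.2% and 54.8% of control, a narrower span than the 34.6% to 45.8% of the FoxO3 depletion. The median log2 ratio was -0.90 for the 10 genes and -0.06 for all analysed genes. Of the 2053 genes in the same GC range 36.8% were at least 1.5-fold lower and 7.89% at least 2-fold lower.

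By complex, SMC3 in the co-depletion was at 54.5% of control (50.5% to 58.7%), STAG2 at 51.0% (47.4% to 55.0%), STAG1 at 54.8% (48.4% to 62.1%) and NIPBL at 50.8% (46.3% to 55.7%). RAD21 was at 65.2% (62.5% to 68.0%). SMC1A was at 93.5%, with an interval of 90.2% to 97.0% that lies below 100%. Rescaled to a median ratio of 1 over all genes, its log2 ratio was -0.03 in the co-depletion, against -0.10 before. In the FoxO3 depletion it was then 0.09, against 0.01. Both moves were larger than counting error, so small SMC1A differences depend on the scaling. SMC2 was at 49.6% (46.0% to 53.4%), SMC4 at 48.95% (45.7% to 52.4%), SMC5 at 52.9% (47.2% to 59.1%) and SMC6 at 48.2% (42.5% to 54.6%). After the GC adjustment 0 of the 10 genes were at least 1.5-fold lower, with a background of 5.67%, and the 8 genes lay between -0.51 (NIPBL) and -0.29 (SMC5) on the log2 scale.

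The third comparison, of the co-depletion over the FoxO3 depletion, asks what Geminin depletion adds. None of the 10 genes passed 1.5-fold in either direction, and the background was 0.617% lower and 1.35% higher. Of the 10 genes, 8 were between 1.14 and 1.43 times as high in the co-depletion. SMC2 had the highest ratio, with 22.5 FPKM in the co-depletion and 15.7 in the FoxO3 depletion (1.43, 1.29 to 1.59), followed by STAG2, with 38.8 and 27.8 FPKM (1.40, 1.26 to 1.55). SMC3 and SMC5 were both 1.28 times as high. RAD21 stood at 1.01 (0.962 to 1.06) and SMC6 at 1.14 (0.969 to 1.34), so neither differed beyond counting error, while SMC1A was lower at 0.928 (0.892 to 0.965). The median log2 ratio was 0.25 for the 10 genes, 0.03 for all analysed genes and 0.13 for the genes of the same GC range. After the GC adjustment it was 0.12.

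A wider list of 30 other subunits and regulators of these complexes held 26 genes above the minimum mean. In the FoxO3 depletion 10 of the 26 were at least 1.5-fold lower and 0 higher, with a median log2 ratio of -0.26, and in the co-depletion 9 were lower and 0 higher, with a median of -0.22. Among all analysed genes 16.7% and 12.3% were lower in those comparisons. After the GC adjustment 4 were lower and 1 (NSMCE3) higher in the FoxO3 depletion, where the background was 8.45% lower and 5.78% higher. With both depleted 2 were lower and 0 higher, where it was 5.67% lower and 4.51% higher. The lower 4 were PDS5A, NCAPD3, NSMCE1 and SLF1, and the lower 2 were ESCO2 and NCAPD3. Of the 9 analysed genes of the list with transcripts at or under 41.5% GC, a split chosen after seeing the data, 7 were lower in each depletion. Among all analysed genes of 36.1% to 41.5% GC, 49.5% were lower with FoxO3 depleted and 36.8% with both depleted. Of the 17 above the split 3 were lower with FoxO3 depleted and 2 with both depleted, with no background of the same GC content beside them. The 2 AT-rich genes that stayed within 1.5-fold, named after their values were seen, were the cohesin release factor WAPL, at 45.3 FPKM in the FoxO3 depletion, 41.9 in the co-depletion and 58.5 in the control, and the centromeric cohesin protector SGO1, at 10.5, 9.25 and 13.1 FPKM.

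Among 12 cohesin regulators 4 were lower in each depletion, beside 16.7% (FoxO3 depletion) and 12.3% (co-depletion) of all analysed genes. After the GC adjustment 1 was lower in each, beside 8.45% and 5.67%. PDS5A, which binds cohesin and tunes its release and protection, was at 66.8 FPKM in the FoxO3 depletion, 81.6 in the co-depletion and 132.6 in the control. Its paralog PDS5B was at 8.99, 11.5 and 19.7 FPKM in those libraries. Of the SMC3 acetyltransferases, ESCO1 was at 4.01 FPKM in the FoxO3 depletion, 5.48 in the co-depletion and 10.5 in the control. ESCO2, which acts in S phase, was at 6.31, 6.52 and 15.3 FPKM. ESCO2 had the lowest co-depletion ratio of the 26 analysed genes, at 42.6% of control (35.2% to 51.4%). The remaining 8 regulators lay within 1.5-fold. CDCA5 (sororin), which protects cohesin after replication, was at 244.3 FPKM in the FoxO3 depletion, 209.4 in the co-depletion and 181.6 in the control, and the separase inhibitor PTTG1 (securin) at 219.5, 206.4 and 194.8 FPKM. Their transcripts are richer in GC, at 57.8% and 46.3%.

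Of 6 other condensin subunits, 2 were lower in each depletion, beside 16.7% (FoxO3 depletion) and 12.3% (co-depletion) of all analysed genes. After the GC adjustment 1 was lower in each, beside 8.45% and 5.67%. NCAPG, a HEAT subunit of condensin I, was at 47.0 FPKM in the FoxO3 depletion, 49.4 in the co-depletion and 92.7 in the control. With transcripts at 39.1% GC, its log2 ratios were -0.96 (FoxO3 depletion) and -0.89 (co-depletion), and -0.32 and -0.40 after the GC adjustment. NCAPD3, a HEAT subunit of condensin II, was at 70.4, 67.2 and 106.7 FPKM. Its transcripts are at 49.4% GC, and the GC adjustment put its log2 ratios at -0.65 (FoxO3 depletion) and -0.68 (co-depletion), against -0.59 and -0.66 before it. The other 4 subunits lay within 1.5-fold in both depletions, among them NCAPD2 of condensin I, at 202.0, 172.9 and 187.0 FPKM, and NCAPG2 of condensin II, at 79.6, 74.2 and 94.2 FPKM. Transcripts of these 4 ran from 43.7% (NCAPG2) to 61.5% GC (NCAPH2).

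Of 6 analysed SMC5/6 subunits and recruiters, 3 were lower with FoxO3 depleted and 2 with both depleted, beside 16.7% and 12.3% of all analysed genes. After the GC adjustment 2 were lower and 1 higher with FoxO3 depleted, beside 8.45% lower and 5.78% higher among all analysed genes. With both depleted 0 were then lower, beside 5.67%. SLF1, which helps bring the complex to damaged DNA, was at 5.81 FPKM in the FoxO3 depletion, 8.47 in the co-depletion and 17.0 in the control. Its partner SLF2 was at 15.6, 17.8 and 29.8 FPKM. SLF1 had the lowest FoxO3-depletion ratio of the 26 analysed genes, at 34.2% of control (26.9% to 43.1%). The RING subunit NSMCE1 was at 14.1, 17.8 and 21.8 FPKM, and its FoxO3-depleted level of 64.5% of control had a wide interval of 46.1% to 89.5%. That interval rests on 56 and 117 recovered reads at a length of 370 bases, against a mean transcript length of 740. The true reads may be a multiple of these, which would make the interval narrower. The kleisin NSMCE4A was at 43.4, 41.9 and 43.1 FPKM and the MAGE subunit NSMCE3 at 14.8, 14.6 and 12.1 FPKM. NSMCE3 had a log2 ratio of 0.27 in the FoxO3 depletion, and 0.60 after the GC adjustment.

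SMCHD1, a non-canonical SMC protein of silenced chromatin, was at 23.8 FPKM in the FoxO3 depletion, 32.4 in the co-depletion and 55.6 in the control. Its FoxO3-depletion log2 ratio was -1.19, and -0.44 after the GC adjustment. Of the meiotic cohesin subunits REC8 alone was analysed. REC8 was at 1.42 FPKM in the FoxO3 depletion, 2.87 in the co-depletion and 2.18 in the control, and was the only gene of the wider list past 1.5-fold in the third comparison, on 39 and 17 reads (ratio 2.01, 1.11 to 3.79). SMC1B, RAD21L1 and STAG3 had means under 1 FPKM, as did EID3 of the SMC5/6 list.

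**Figure D4:**
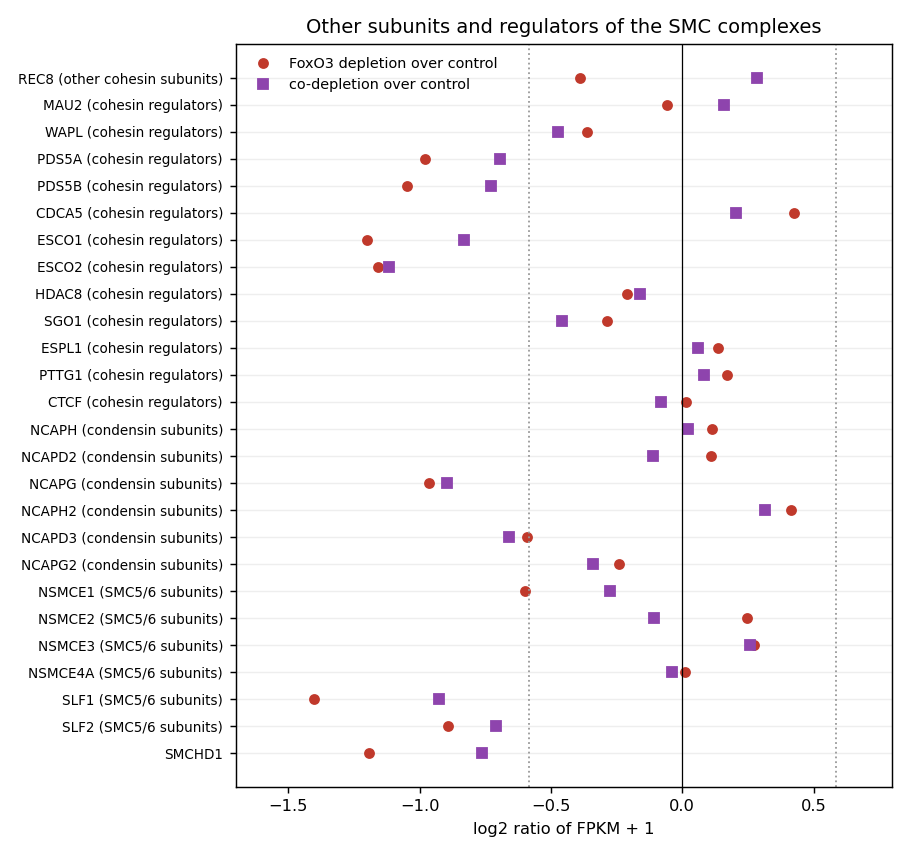
Log2 ratio of FPKM + 1 to the control for the 26 analysed genes of the wider list, by complex, in the FoxO3 depletion (circles) and the co-depletion (squares), with dotted lines at 1.5-fold. No point lies right of the upper line, and the points left of the lower line come from all the groups but REC8.

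Proliferation genes gave values beside which these can be read. Of 13, 3 were at least 1.5-fold lower in each depletion and 0 higher, beside the 16.7% and 12.3% of all genes that were lower, with medians of -0.05 with FoxO3 depleted and -0.16 with both depleted. TOP2A, which partners condensin on mitotic chromosomes, was at 175.4 FPKM in the FoxO3 depletion, 213.3 in the co-depletion and 477.7 in the control. The mitotic kinase CDK1 was at 58.2, 67.8 and 122.1 FPKM, and the cycling-cell marker MKI67 at 109.2, 102.5 and 170.9 FPKM. These 3 named genes are the 3 that were lower. The other 10 lay within 1.5-fold, with log2 ratios of up to 0.30 with FoxO3 depleted and 0.15 with both depleted. TOP2A and CDK1 transcripts are at 38.9% and 35.8% GC, and MKI67 transcripts at 48.0%. After the GC adjustment the log2 ratios with FoxO3 depleted were -0.78 for TOP2A, -0.27 for CDK1 and -0.63 for MKI67. With both depleted they were -0.65, -0.25 and -0.71. Over all 13 genes the adjusted medians were 0.14 with FoxO3 depleted and -0.05 with both depleted. The summed FPKM of the 13 genes was 1540 in the FoxO3 depletion, 1455 in the co-depletion and 1939 in the control. The 10 genes other than the 3 lower ones summed to 1198 FPKM in the FoxO3 depletion, 1072 in the co-depletion and 1168 in the control. The 3 were set apart by their own ratios, so this split follows from the call and is no separate result. The part of proliferation genes in the SMC ratios was not tested.

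Other genes shared the pattern of the 10 genes. Measured as the distance from their median pair of log2 ratios to the control, over 2 comparisons and 3 libraries, the nearest analysed genes outside the lists were THAP9-AS1 (distance 0.0146), an antisense gene whose reads are uncertain without a known strand setting, U2SURP, UPF2, ZBTB33 and CEP295 (distance 0.0271). U2SURP was at 16.1 FPKM in the FoxO3 depletion, 19.3 in the co-depletion and 37.5 in the control. In all, 93 genes lay within 0.1 of that pair, with a median GC content of 39.6%.

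Reads of some of the 10 genes may include those of overlapping genes on the other strand, since the labels and headers do not give the strand setting. In GENCODE 29, PCCB shares 1664 exonic bases with STAG1 and was at 19.4 FPKM in the FoxO3 depletion, 17.4 in the co-depletion and 16.1 in the control, so it did not share the lower level of STAG1. GEN1 shares 107 exonic bases with SMC6 and was at 5.96, 7.67 and 14.8 FPKM.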

How the data were processed

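RNA was sequenced from 3 MDA-MB-231 libraries, 1 per group, each assigned to its group by title. The deposited values are FPKM per Ensembl gene, which the authors computed; TopHat2 2.0.9 is named in the submitters' processing notes, while genome build, annotation, read counter and strand setting were not stated in labels or headers. GENCODE 29 gave symbols, GC content and lengths for 45342 of 48162 IDs. Whole reads behind the FPKM were recovered for 20587 of 20591 genes detected in 2 or more libraries, and for 14 of 2000 values drawn at random. They are the smallest that give a whole number of bases, so true reads can be a multiple. Intervals from them are 95%, exact (Clopper-Pearson for ratios, Poisson for levels, conditional odds ratio for gene pairs) and cover counting error only, which says nothing of variation between cultures. Depth of the FoxO3-depleted library was 74.2% and of the co-depleted library 84.6% of the control's.

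Ratios are log2 of (FPKM + 1) over (FPKM + 1), which understates differences of low genes, over the 12649 named genes with a mean of at least 1 FPKM. Calls are by size at 1.5-fold, with no test. The GC adjustment subtracts the median ratio of 50 GC bins, interpolated, and was tested on simulated data. Alternatives were other pseudocounts, minimums, size rules, scalings and the GC and length adjustments. The 10 genes and all lists were chosen with earlier results of these data known. Named genes are the 10, FOXO3 and GMNN, every gene of the wider list past 1.5-fold in any comparison, up to 2 others per group by mean FPKM, 3 proliferation genes, the 5 nearest genes, and overlapping genes at 10% or more of the gene's summed FPKM. Of the markers of other cells PECAM1 had no match; CD3E was listed at 0, PTPRC and CDH5 were at or under 0.191 FPKM and CDH1 was at 1.02 FPKM or less. A marker is not reported here. Computation used Python 3.11.15, numpy 2.4.6, pandas 2.3.3 and scipy 1.17.1.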

Additional observations from a re-analysis of the deposited data

How the results depend on the processing

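No paired analysis was possible because each group has 1 library, and for the same reason no replicate could be left out. Adjusting for GC content moved the lower genes among the 10 to 3 with FoxO3 depleted and 0 with both depleted, against 9 each, the medians to -0.58 and -0.42, and the wider list to 4 lower and 1 higher and to 2 lower. Adjusting for GC content and length gave 3 and 0 lower, medians of -0.53 and -0.38, and 4 lower with 1 higher and 2 lower in the wider list. At 2-fold the co-depletion had 1 lower gene among the 10, beside 2.25% of all analysed genes. The wider list had 5 lower with FoxO3 depleted, beside 5.23%, and 1 with both depleted, beside 2.25%. It had 0 higher in the co-depletion over the FoxO3 depletion, beside 0.126%. Under a looser size rule than 1.5-fold the wider list had 2 higher with FoxO3 depleted. In the co-depletion over the FoxO3 depletion, 4 of the 10 were then higher, with 6 higher and 1 lower in the wider list. The share of all analysed genes past that looser rule was not computed, so these counts have no background beside them. With a minimum mean of 5 FPKM, REC8 was no longer tested. The wider list then had 0 higher in the co-depletion over the FoxO3 depletion. Per longest transcript, 6 of the 10 genes took another place in the FoxO3-depleted library, 7 in the co-depleted library and 7 in the control. A pseudocount of 0.1, no pseudocount and TPM each left all 30 ratios of the 10 genes within their counting error, rescaling to a median ratio of 1 left 26, and the GC adjustment 9. That rescaling moved the ratios of SMC1A and RAD21 to the control past their counting error. It ended the calls of RAD21, which left 8 of the 10 lower in each depletion, and gave 8 lower in the wider list with FoxO3 depleted. The counts under this rescaling and under the GC and length adjustment have no background beside them. Among these 30 no called ratio changed direction in any setting. With 1 library per group, differences between cultures could not be measured.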
